A study of Homo sapiens with 2 samples.

Results

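Peaks of NRF-1 that were called in control cells, that had no counterpart after AATF knockdown and that lay away from the starts of coding genes are described here. NRF-1 occupancy was measured by chromatin immunoprecipitation in U251, an established human glioblastoma line, after transfection with a control siRNA (siControl) or an siRNA against AATF (siAATF #1, per the study's methods). Each condition was represented by 1 peak list, so no spread between replicates could be computed and no test between conditions was made. The sample labels give U251 and replicate 1 for both libraries, while the series' design text names U138 and the protocol speaks of duplicates, and the sample labels were followed. Neither list holds a readout of AATF itself, so the knockdown could not be checked in them. The study shows a western blot of the transfected U251 cells used for this ChIP-seq, which was not examined here.

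The siControl list held 17850 peaks on chromosomes 1 to 22 and X, and 2012 of them (11.3%) overlapped no siAATF peak by even 1 base. Of these, 451 overlapped the window of 1 kb either side of the start of a coding transcript and 1561 did not. The 1561 peaks, called siControl-only distal peaks below, were 25.3% of the 6160 siControl peaks away from coding promoters. The same rule in the other direction gave 2045 siAATF-only distal peaks, 30.7% of the siAATF peaks away from coding promoters. The peaks were selected on their absence from the siAATF list, so these shares and the strengths given below describe the selection and were not tested. Where the peaks lay and what sequence they held were not used by the rule beyond the exclusion of coding promoters.

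The factor NRF-1 recognises a GC-rich palindrome, mostly in CpG-rich promoters, and is best known for the control of respiratory chain genes. AATF is a nuclear protein that works with RNA polymerase II and other transcription factors and has roles in cell survival. Peaks of a promoter-binding factor that lie far from coding starts can sit in introns, at the starts of noncoding RNA genes or in intergenic DNA, and weak ones are the most sensitive to the calling threshold.

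The core of the NRF-1 palindrome, searched as CGCATGCG, was found exactly in 10 of the 1561 siControl-only distal peaks. These 10 sites are shown because they are the members with an exact match. They are given on the plus strand of hg19, with the core in capitals and 16 bases on each side. Each is named by the coding gene that holds it or lies nearest.
XKR3, chr22:17229407-17229446: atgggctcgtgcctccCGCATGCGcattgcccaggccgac
STEAP1, chr7:89748674-89748713: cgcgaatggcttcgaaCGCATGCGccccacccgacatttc
OR10A6, chr11:7904021-7904060: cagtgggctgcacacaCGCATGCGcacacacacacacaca
ITGA1, chr5:51870612-51870651: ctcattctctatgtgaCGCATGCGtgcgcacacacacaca
ZNF423, chr16:49867219-49867258: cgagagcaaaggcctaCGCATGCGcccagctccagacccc
NDN, chr15:24105590-24105629: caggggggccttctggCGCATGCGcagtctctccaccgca
PCDH10, chr4:132658645-132658684: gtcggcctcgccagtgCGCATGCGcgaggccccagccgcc
ALG10, chr12:34539117-34539156: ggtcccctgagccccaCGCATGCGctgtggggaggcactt
COL20A1, chr20:61953891-61953930: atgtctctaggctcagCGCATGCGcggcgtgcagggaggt
EEF2, chr19:3986909-3986948: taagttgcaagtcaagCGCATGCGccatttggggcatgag
At OR10A6 and ITGA1 the core ran into a CA repeat, and at PCDH10 and STEAP1 it lay in sequence rich in CpG.

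Most members lacked an exact match to the core, and sequence from the strongest of them is shown. The peak with the highest fold enrichment lay in an intron of DYNC1I1, and its central 120 bases are shown with no letters marked. They include GCATGC, the inner part of the core, without the outer base on either side. The peak at GAP43 held a tandem repeat, shown in capitals with 30 bases on each side.
DYNC1I1, chr7:95538767-95538886: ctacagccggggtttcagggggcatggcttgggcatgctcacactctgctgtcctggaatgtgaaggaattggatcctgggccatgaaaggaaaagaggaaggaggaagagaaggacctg
GAP43, chr3:115401965-115402065: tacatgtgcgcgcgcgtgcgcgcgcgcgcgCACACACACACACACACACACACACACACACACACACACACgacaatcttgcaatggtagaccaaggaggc
The repeat at GAP43 was a CA repeat of 41 bases that followed a stretch of alternating C and G. A tandem repeat of at least 40 bases, with a unit of up to 6 bases, was present in 26 members (1.67%), against 1.03% of siAATF-only distal peaks.

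The members were weak peaks. Their fold enrichment over the local background, the ratio given by the peak caller, lay between 1.72 and 7.28, with 3.84 as the median. Ranked by fold enrichment within the full siControl list, from 0 for the lowest to 100 for the highest, they had a median percentile of 13.9, and 21 of 1561 ranked above 50. The −log10 q was at least 2 in 968 members and at least 5 in 55, with a median of 2.29. The median width was 266 bp, and the narrowest were 200 bp, the smallest width in the lists. Because strength differed so much from the 4599 siControl peaks that were shared with siAATF away from coding promoters, the 1966 of these with a −log10 q under 5 are given as a further comparison and called weak shared peaks. Their median −log10 q of 3.08 was still above that of the members, and their median width was 367 bp.

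**Figure D1:**
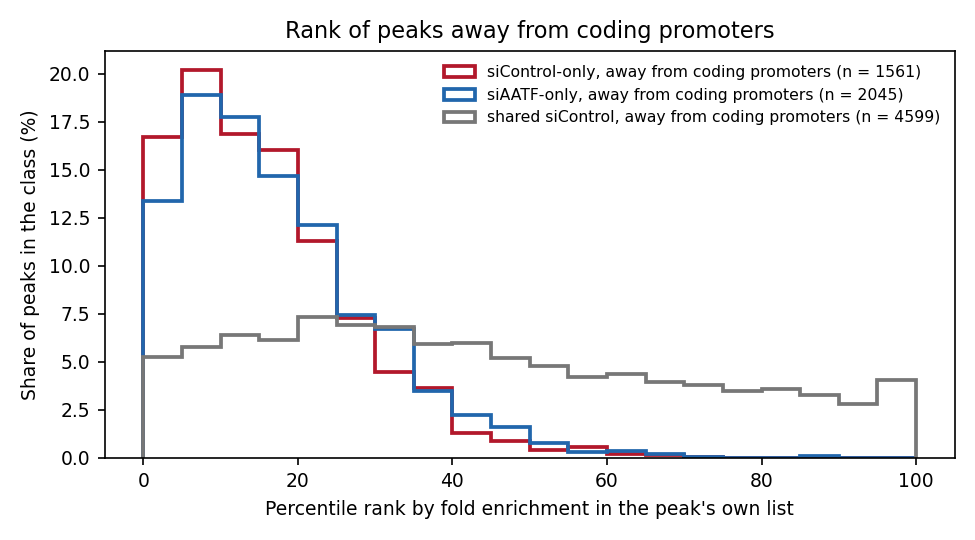
Share of peaks (%) in each 5-point bin of percentile rank by fold enrichment, ranked within the peak's own list, for siControl-only (n = 1561), siAATF-only (n = 2045) and shared siControl (n = 4599) peaks away from coding promoters. Both condition-specific classes lie mostly in the lower part of their lists, with a median of 13.9 for siControl-only peaks, while shared peaks spread over the whole range.

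The edge of the overlap rule was near for few members. The gap to the nearest siAATF peak had a median of 26.4 kb. It was at most 500 bp for 23 members and at most 5 kb for 207, which is 13.3% (exact binomial 95% interval 11.6% to 15%). That share was 13.0% for siAATF-only distal peaks and their nearest siControl peak. The intervals here and below cover counting error over peaks only.

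Just inside the rule was a peak near GSTM5, a glutathione transferase gene, which abutted a siAATF peak without sharing a base, with a fold enrichment of 4.55. Peaks near ENKUR, COL5A1 and NFATC1 were also close, at gaps of 0.020 kb, 0.044 kb and 0.065 kb. Just outside it were shared peaks near COL6A1, LZTS1, RAB11FIP4, GAP43 and PRPF6, which overlapped a siAATF peak by 7, 8, 10, 10 and 13 bases. The fold enrichments of those shared peaks ran from 3.32 to 3.81, within the range of the members.

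At the edge of the promoter rule, the member closest to a coding start lay in the coding exon of ADRA2C, an adrenergic receptor gene, with its midpoint 1.12 kb from the start. Members near FABP6, CLIC6, CENPM and BCKDHA followed, at 1157, 1170, 1172 and 1179 bp.

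The 10 members with the highest fold enrichment lay in, or nearest to, genes of varied function. The first was the peak in intron 6 of DYNC1I1, which encodes an intermediate chain of cytoplasmic dynein, at chr7:95538602-95539051. It had a fold enrichment of 7.28 and a −log10 q of 10.9, and the nearest siAATF peak was 136 kb away. The second, in intron 2 of GAP43, which encodes a growth cone protein of neurons, had a fold enrichment of 6.95. The third lay outside genes, at chr17:81194884-81195210, and had a fold enrichment of 6.87. It held a tandem repeat of 47 bases and no CpG, and where else its reads could align was not tested. The nearest coding gene, METRNL, which encodes a secreted protein, was 142 kb away. Next came intron 2 of COL13A1, a transmembrane collagen gene, with 6.76.

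Of the rest of this group, 4 peaks had their midpoint outside genes. They included those near the histone variant gene H3Y2 (fold enrichment 6.75), the fibrillar collagen gene COL5A2 (6.63) and the cadherin gene CDH6 (6.42). The peak near CDH6 was 689 kb from the nearest coding start. A peak in exon 9 of WWC1, a regulator of the Hippo pathway, had a fold enrichment of 6.49 and was the member of this group in coding sequence. A peak near SLC2A2, which encodes a glucose transporter, lay in a long noncoding RNA gene (6.45), and the peak near SSB, with its midpoint outside genes, overlapped the processed pseudogene CYB5AP2 (6.43).

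Members lay in gene bodies about as often as siAATF-only distal peaks and somewhat more often than positions of a genomic grid. The midpoint was inside a coding gene for 783 members, which is 50.2% (47.6% to 52.7%). The share was 52.1% for siAATF-only distal peaks (49.9% to 54.3%), 46.4% for weak shared peaks and 41.3% for all shared distal peaks. It was 44.9% for that grid, which held positions every 10 kb outside coding promoters. Introns held 43.4% of members, noncoding genes 15.1%, and 34.8% lay outside annotated genes. The 783 members lay in 673 coding genes, whose median length, weighted by members, was 111 kb. Weighted in the same way, it was 114 kb for siAATF-only distal peaks and 96.8 kb for weak shared peaks. For grid positions inside coding genes it was 188 kb.

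Coding exons held a larger share of members than of the other classes. A coding exon held the midpoint of 80 members, 5.12% (4.08% to 6.34%). It did so for 2.59% of siAATF-only distal peaks (1.95% to 3.38%) and 2.44% of weak shared peaks (1.81% to 3.22%). For all shared distal peaks it was 3.33% (2.83% to 3.89%), and for the grid 1.0%. With at least 1 base in a coding exon required instead, the shares were 8.58%, 6.06% and 5.14% for members, siAATF-only and weak shared peaks. For all shared distal peaks it was 6.59%. Among members with a −log10 q of at least 2 the share was 4.24%, against 2.19% and 2.40% at the same limit. Members were above siAATF-only and weak shared peaks in each of the 3 counts, which were chosen after earlier results were known. The order of siAATF-only and weak shared peaks was not the same in all 3. UTR exons held 1.60% of members.

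**Figure D2:**
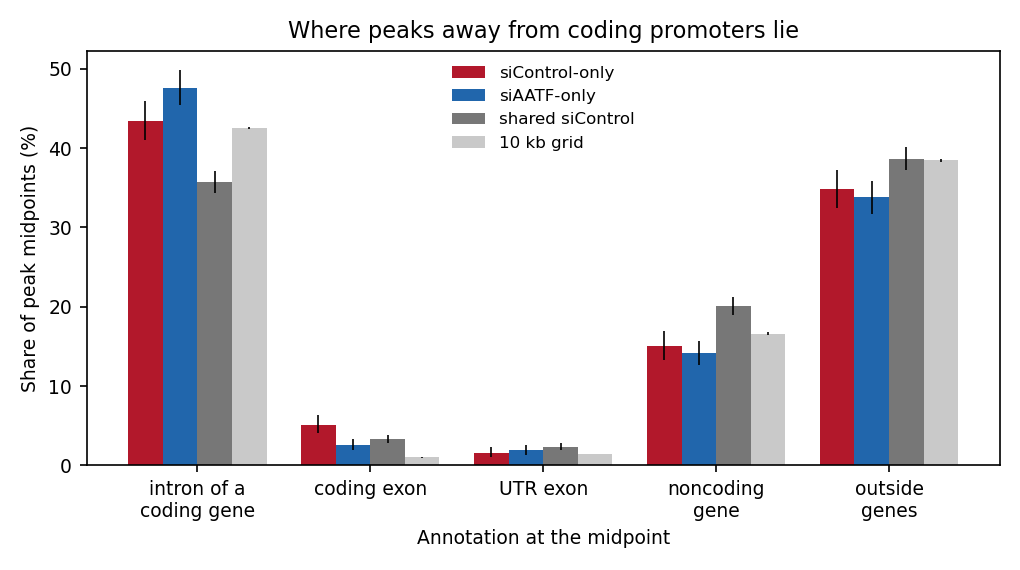
Share of peak midpoints (%) by annotation for siControl-only (n = 1561), siAATF-only (n = 2045) and shared siControl (n = 4599) peaks away from coding promoters and for a 10 kb grid of positions. Bars give the share and lines its exact binomial 95% interval. Coding exons hold 5.12% of siControl-only peaks, more than in the other classes.

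The members in coding exons were GC-rich, with a median GC content of 66.1% over the 80 peaks. After WWC1, the highest fold enrichments, named after their values were seen, were at FBXO32, a ubiquitin ligase subunit gene (5.62), DUSP15, a dual-specificity phosphatase gene (4.72), and SOBP (4.69). A peak in exon 2 of POU4F1, which encodes a POU-domain transcription factor of sensory neurons, had a fold enrichment of 4.61 and a GC content of 85.4%. The central 100 bases of 3 members in coding exons are shown with each CpG in capitals, ADRA2C as the member closest to a coding start, POU4F1 as a GC-rich one and WWC1 as the strongest. They were chosen after their values were seen and do not stand for the group, in which the peak at FBXO32 had a GC content of 56.8%.
ADRA2C, chr4:3769186-3769285: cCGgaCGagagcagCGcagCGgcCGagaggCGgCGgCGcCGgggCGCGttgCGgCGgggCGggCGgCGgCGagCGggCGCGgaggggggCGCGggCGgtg
POU4F1, chr13:79176204-79176303: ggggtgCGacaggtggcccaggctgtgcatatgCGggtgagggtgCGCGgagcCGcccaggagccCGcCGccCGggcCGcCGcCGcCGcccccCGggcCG
WWC1, chr5:167841532-167841631: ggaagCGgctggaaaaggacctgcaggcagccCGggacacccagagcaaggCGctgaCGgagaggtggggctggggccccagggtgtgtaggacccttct
These windows held 23 CpG at ADRA2C, 14 at POU4F1 and 4 at WWC1, where the peak ran over the end of the exon.

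Within gene bodies the members were spread evenly. Split by position from the start to the end of the gene, 22.2% lay in the first 25% of the body, 27.7% in the next, 23.9% in the third and 26.2% in the last. Each of these intervals overlapped the others. Intron 1 of the canonical transcript held 173 of the 583 members in an intron of that transcript, 29.7% (26.0% to 33.6%), against 25.8% (22.9% to 28.9%) for siAATF-only distal peaks.

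The nearest coding start lay at a median distance of 27.6 kb (24.6 kb to 30.4 kb). This was close to the 28.2 kb of siAATF-only distal peaks (25.5 kb to 30.4 kb), a little above the 24.0 kb of shared distal peaks and well below the 60.4 kb of the grid. Starts of noncoding genes were passed over by the rule, and 192 members, 12.3% (10.7% to 14%), lay within 1 kb of one. The share was 8.66% for siAATF-only distal peaks (7.47% to 9.96%), 17.2% for weak shared peaks, 24.7% for shared distal peaks and 3.24% for the grid. Starts of long noncoding RNA genes made up most of these, with 123 members (7.88%).

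Pseudogenes were overlapped by 53 members, 3.40% (2.55% to 4.42%), against 1.91% of siAATF-only distal peaks (1.36% to 2.60%) and 4.59% of shared distal peaks. Of these 53, 26 touched a processed pseudogene, a retrotransposed copy of an mRNA. Reads from such copies can align to more than 1 place, and how the aligner treated them was not given in the sources used here.

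Genes that held several members were mostly long. Of the 673 genes with a member, 586 held 1, 74 held 2 and 13 held at least 3. CDH4, a cadherin gene, GNG7, which encodes a G protein gamma subunit, KIAA1671 and RPTOR, which encodes the raptor subunit of mTORC1, held 5 each. PTPRN2, a receptor-type phosphatase gene, and TTC34 held 4 each. ABTB2, the calcium channel gene CACNA1C, ENSG00000258989, the inositol phosphatase gene INPP5A, the Rac exchange factor gene PREX1, the protein kinase C gene PRKCA and the Rab5 effector gene RIN2 held 3 each.

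The 5 members in RPTOR, at chr17:78518619-78940171, lay 112 kb, 207 kb, 215 kb, 290 kb and 329 kb from the start of the gene. Their fold enrichments were 5.05, 4.58, 3.42, 3.27 and 3.03 in that order. The same gene body held 7 shared distal peaks and 2 siAATF-only peaks, so the members lay among other peaks of both kinds. In CACNA1C the 3 members spanned 40.4 kb, between 274 kb and 314 kb from the start. In PRKCA the 3 members lay at 462 kb, 480 kb and 505 kb of a gene of 508 kb, near its end.

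Promoter peaks accompanied most but not all of these genes. A peak at a coding promoter was present in both lists for CDH4, GNG7, KIAA1671, ABTB2, CACNA1C, INPP5A, PREX1, PRKCA and RIN2, and in neither list for RPTOR, PTPRN2, TTC34 and ENSG00000258989. Over the 662 host genes with a coding start in the annotation, 71.8% (68.2% to 75.2%) had a promoter peak in both lists. The share was 76.8% for genes holding a siAATF-only distal peak, 71.8% for genes holding a shared distal peak and 59.6% for all coding genes. A siAATF-only distal peak lay in 167 of the host genes, 24.8% of the genes with a member and 18.1% of those with a siAATF-only distal peak. Among all 19748 coding genes, 909 held a siAATF-only distal peak. Gene length was not accounted for, and this overlap was not tested.

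**Figure D3:**
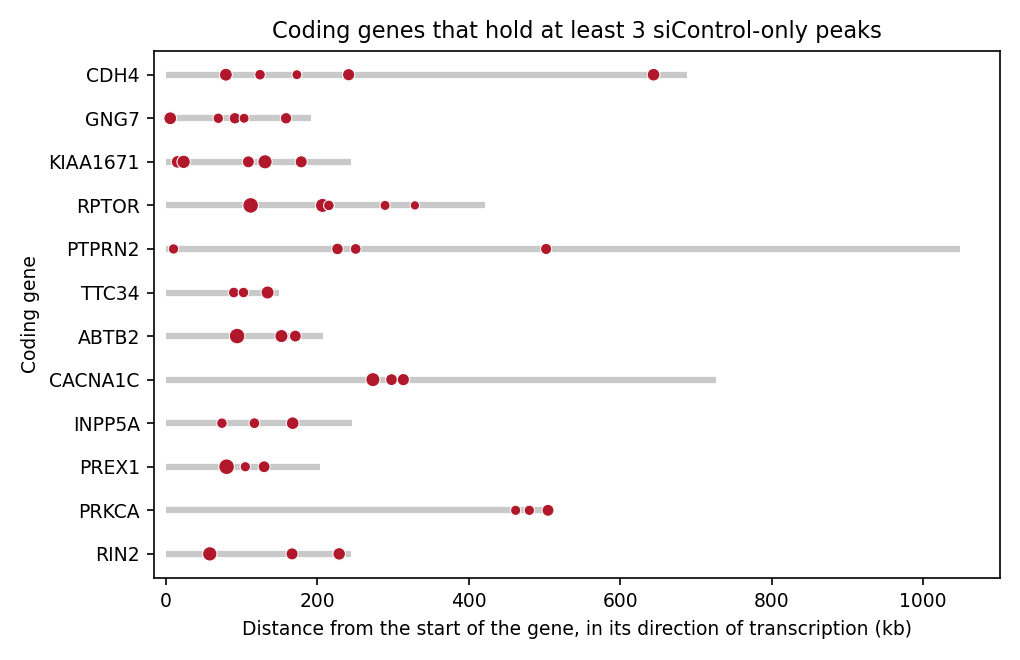
Positions of siControl-only peaks (red points, area growing with fold enrichment) along the bodies (grey lines) of the 12 coding genes with a symbol that hold at least 3 of them, in kb from the start of the gene in its direction of transcription. In CACNA1C and PRKCA the points lie close together, and in CDH4, GNG7 and RIN2 they are spread along the gene.

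Along the chromosomes, 492 members had another member within 100 kb, 31.5% (29.2% to 33.9%). For siAATF-only distal peaks it was 31.8% (29.8% to 33.9%). Chained at gaps of up to 100 kb, the members formed 169 pairs, 33 groups of 3 and 12 larger groups. The largest, of 6 members over 312 kb, was that at RPTOR. Groups of 5 lay at PRKCH and ENSG00000258989 over 62.8 kb, at GNG7 over 153 kb, at KIAA1671 over 164 kb, at RAB11FIP4 and COPRS over 185 kb, and at the stretch from APOD to TNK2, with the mucin genes MUC20 and MUC4, over 253 kb. The group at PRKCH, a protein kinase C gene, held no other distal peak of either kind, while that at RAB11FIP4 held 4 shared distal peaks and no siAATF-only peak.

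Members were most dense on chromosomes 19, 17, 22 and 20, with 1.97, 1.68, 1.49 and 1.48 peaks per Mb of known sequence, and least dense on chromosome X with 0.0993. The mean over all chromosomes was 0.550 per Mb. The same 4 chromosomes were densest for siAATF-only distal peaks, with 1.97 per Mb on chromosome 19 and 0.172 on chromosome X. Of both condition-specific classes together, members made up 43.3% (41.7% to 44.9%) overall. The highest share of any chromosome was 53.7% (45.7% to 61.5%) on chromosome 20, followed by 51.4% (41.5% to 61.3%) on chromosome 4. Chromosome 20 is named because its share was the highest, so its interval is not a test.

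**Figure D4:**
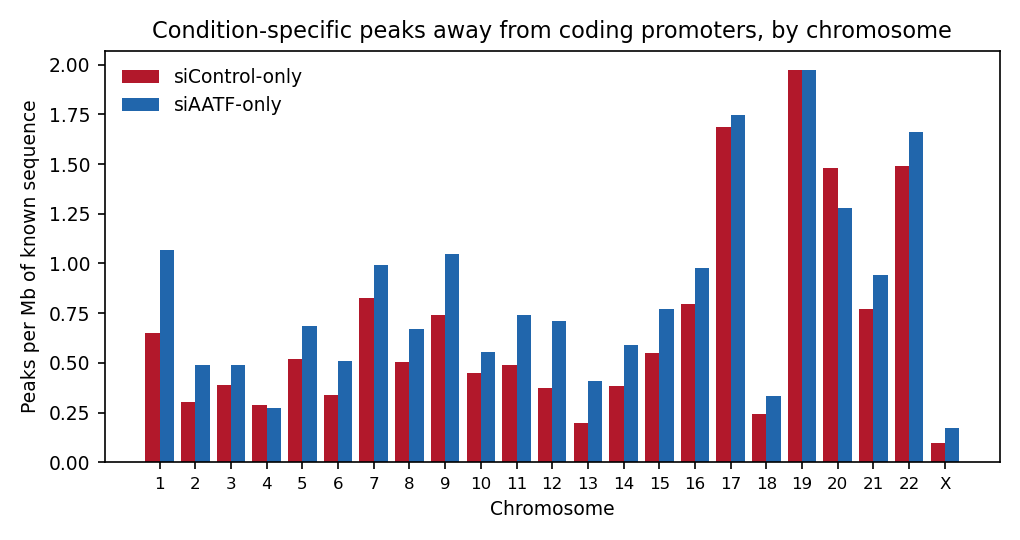
Peaks per Mb of known sequence on each chromosome for siControl-only (red) and siAATF-only (blue) peaks away from coding promoters. Both are densest on chromosome 19, at 1.97 per Mb each, and siControl-only peaks are denser than siAATF-only peaks on chromosomes 4 and 20.

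The ends of chromosomes held more members than the grid. Within 5 Mb of an end lay 21.1% (19.1% to 23.2%), against 16.2% of siAATF-only distal peaks (14.6% to 17.9%), 18.4% of weak shared peaks and 6.95% of the grid. The difference between the classes was smaller among peaks with a −log10 q of at least 2, where the shares were 17.7% for members, 16.4% for siAATF-only and 17.1% for weak shared peaks.

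Base composition differed between the 2 condition-specific classes in its median, though the distributions overlapped. The middle 50% of members had a GC content of 53.4% to 65.2%, and that of siAATF-only distal peaks 46.7% to 60.3%. The GC content of members had a median of 59.2% (58.7% to 59.5%), against 53.2% (52.6% to 53.8%) for siAATF-only distal peaks. It was 58.9% for weak shared peaks and 60.2% for all shared distal peaks, so members were close to the peaks that both lists held. Among peaks with a −log10 q of at least 2 the medians were 58.7% for members and 53.0% for siAATF-only peaks, and without the 4 densest chromosomes they were 59.0% and 52.5%. A GC content of at least 50% with a CpG observed-to-expected ratio of at least 0.6 was found in 18.0% of members, 10.2% of siAATF-only distal peaks, 24.6% of weak shared peaks and 38.7% of shared distal peaks.

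The NRF-1 core was rare in both condition-specific classes. Its 10 members are 0.641% (0.308% to 1.17%), against 0.342% of siAATF-only distal peaks (0.138% to 0.704%) and 0.865% of weak shared peaks (0.505% to 1.38%). It was found in 3.76% of shared distal peaks and 4.87% of all siControl peaks. A control palindrome of the same composition, GCGATCGC, was found in 0 of 1561 members, which allows a share of up to 0.192% when 3 counts are taken as the limit and up to 0.236% by the exact interval, and in 0.745% of all siControl peaks. In windows of 200 bp, the core was in 0.512% of members around their midpoint and in 1.55% of windows around coding starts.

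Lengthened by 1 base on each side and searched with up to 1 mismatch, the palindrome was found in 2.37% of members (1.67% to 3.25%). It was found in 0.929% of siAATF-only distal peaks (0.560% to 1.45%), 2.75% of weak shared peaks (2.07% to 3.57%) and 11.8% of shared distal peaks. On this looser match members were thus above siAATF-only distal peaks and close to weak shared peaks. The palindrome is GC-rich, and median GC content was 59.2%, 53.2% and 58.9% for members, siAATF-only and weak shared peaks. This match was not counted within bands of GC content, so a part of GC content in the order was not tested.

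The 10 peaks with the exact core were not among the strongest members. That near XKR3, within the long noncoding RNA gene LINC01665, had the highest fold enrichment, 4.58. Those near STEAP1, a gene of a metalloreductase family, OR10A6, an olfactory receptor gene, and ITGA1, an integrin gene, followed with 4.24, 4.11 and 4.05. The peak in intron 1 of ZNF423, which encodes a zinc finger transcription factor, had 3.82, and that nearest NDN, the necdin gene, had 3.70. The peak nearest PCDH10, in the noncoding gene SNHG27, had 3.65 and lay 1412 kb from a coding start. Those near ALG10, in intron 27 of COL20A1 and near EEF2, a translation elongation factor gene, had 3.15, 3.06 and 1.98. The peak near EEF2 was 1.42 kb from the coding start and 0.542 kb from a siAATF peak.

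The sequence TGANTCA, called the AP-1 word here, was less frequent in members than in any other class of distal peak. It takes in TGACTCA, the site of AP-1, the family of FOS and JUN dimers. It also takes in TGAATCA, which differs at the central base. It was found in 261 members, 16.7% (14.9% to 18.7%). It was found in 35.6% of siAATF-only distal peaks (33.5% to 37.7%), 30.3% of weak shared peaks (28.3% to 32.4%) and 27.1% of shared distal peaks (25.9% to 28.4%). TGACTCA or its reverse complement was in 220 members and TGAATCA or its reverse complement in 53. These forms were counted apart in members only. The sites in the 3 strongest members with the word, named after their values were seen, are shown with the word in capitals. That at NID1 is the TGAATCA form.
CDH6, chr5:30505184-30505222: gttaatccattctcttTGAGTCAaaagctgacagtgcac
ZNF280B, chr22:22752113-22752151: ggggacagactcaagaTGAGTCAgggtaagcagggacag
NID1, chr1:236135253-236135291: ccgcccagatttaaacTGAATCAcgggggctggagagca

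The word has few G and C, and the wider a peak the more often it holds any word, so the share was also counted within bands. Among peaks with a GC content of 50% to 60% it was 21.3% of members (18.1% to 24.8%), 39.3% of siAATF-only distal peaks (35.8% to 42.8%) and 39.4% of weak shared peaks. Between 60% and 70% it was 11.3%, 24.6% and 24.4%, and between 40% and 50% it was 30.2%, 44.1% and 38.8%. At 70% and above the word was in 3 of 198 members and in 0 of 83 siAATF-only peaks, and below 40% only 14 members could be counted. Within the central 200 bp, which gives each peak the same length, it was 13.1%, 27.0% and 20.4%, against 3.74% of 200 bp windows around coding starts. For shared distal peaks it was 16.2%. In this central window, with bands by GC content of the whole peak, members and shared distal peaks were close in the outer bands. The shares were 23.6% (18.0% to 29.9%) and 24.9% at 40% to 50%, and 9.58% (7.19% to 12.4%) and 11.0% at 60% to 70%. At 50% to 60% they were 16.3% and 23.5%. For siAATF-only distal peaks the 3 bands gave 34.3%, 30.2% and 17.3%.

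The lower share in members also held over peak strength. With a −log10 q of 1.5 to 2 the word was in 15.1% of members and 34.8% of siAATF-only distal peaks, and with 2 to 3 it was in 17.6% and 36%. With 3 to 4 it was in 22.1% and 40.6%. In introns of coding genes it was in 21.1% of members and 38.2% of siAATF-only peaks, and in coding exons in 1 of 80 members. These bands were chosen after the lower share had been seen.

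**Figure D5:**
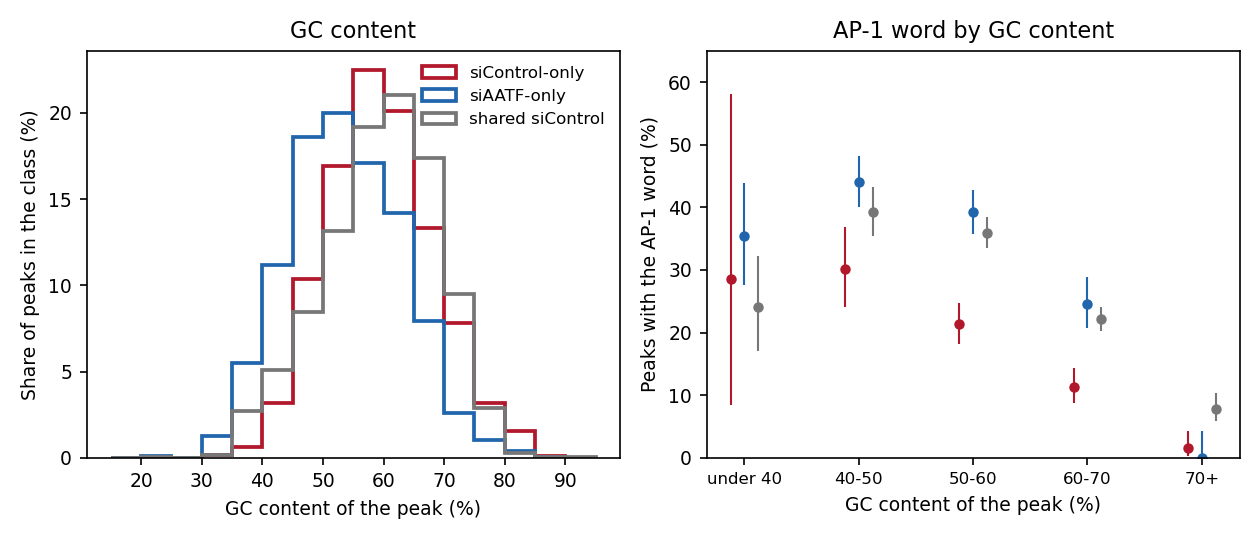
Left, share of peaks (%) by GC content (%) for siControl-only, siAATF-only and shared siControl peaks away from coding promoters. Right, share of peaks (%) with the AP-1 word in bands of GC content, with points for the share and lines for its exact binomial 95% interval, in the same colours. Between 40% and 70% GC the siControl-only points lie below the others, while below 40% and at 70% and above they do not lie below both. Shares are over whole peaks, with a median width of 266 bp for siControl-only and 505 bp for shared peaks. Wider peaks hold any word more often.

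Further words were counted in the central 200 bp on both strands, and no word is contained in another. The CTCF word AGGNGGC was in 27.9% of members, 21.6% of siAATF-only distal peaks and 29.6% of weak shared peaks. The SP word GGGCGG was in 22.8%, 15.9% and 27.2%, the ETS word CCGGAAG in 2.50%, 1.66% and 2.70%, the TEAD word GGAATG in 13.9%, 14.6% and 15.5%, and the E-box CACGTG in 4.16%, 5.33% and 4.43%. Windows around coding starts held these words in 30.3%, 43.4%, 9.42%, 7.82% and 5.14%. For the GC-rich words members were above siAATF-only peaks and at or below weak shared peaks. A match is a description of the letters, not of binding.

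Gene families were counted by the coding gene that held or lay nearest to each member. Of 20 families, those with at least 5 members were compared, and collagen genes had the highest ratio of members to siAATF-only distal peaks, with 16 members, 1.02% (0.587% to 1.66%), and 8 siAATF-only distal peaks, 0.391% (0.169% to 0.769%). The share was 0.544% for shared distal peaks and 0.391% for the grid. The 16 lay at 12 genes and 13 were inside the gene. After COL13A1 and COL5A2 the strongest were in COL25A1 (fold enrichment 5.13) and COL4A3 (4.99). The intervals of the 2 classes overlapped, and 20 families were looked at.

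Potassium channel genes had 18 members at 14 genes (1.15%, grid 1.0%), with 2 in introns of KCNAB1, which encodes a channel beta subunit (5.27 and 5.15), and others near KCNA5 (4.69) and in KCNIP1 (4.51). Cadherin genes had 16 members at 10 genes (1.02%, grid 1.29%), led by CDH6, CDH4 (4.96), CDHR3 (4.66) and CDH9 (4.24). Voltage-gated calcium and sodium channel genes had 8 members (0.512%, grid 0.320%, siAATF-only 0.489%), all 8 inside the gene. Among them were CACNA1C (4.56), CACNA1I (4.01) and a coding exon of CACNA1A (3.89).

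Zinc finger genes of the C2H2 class, the largest family counted, had 29 members (1.86%, grid 1.87%), led by ZNF280B (6.19) and ZNF366 (5.85). Axon guidance genes had 10 members (0.641%, grid 1.38%), of which a peak nearest the plexin gene PLXNA4 had a fold enrichment of 6.36. Solute carrier genes had 25 members (1.60%, grid 1.82%), with SLC12A5, a potassium-chloride cotransporter gene of neurons, at 5.16. Motor protein genes had 12 (0.769%, grid 0.761%), led by DYNC1I1 and by DNAH5 (4.4).

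Families of signalling and development were counted in the same way. FGF, WNT, TGF-beta and BMP pathway genes had 15 members (0.961%, grid 0.618%), among them SMAD4 (5.07) and SMAD6 (5.0). Their share was 0.929% for siAATF-only and 0.805% for shared distal peaks. Homeobox genes had 14 (0.897%, grid 0.488%), among them LHX8 (4.18) and PAX8 (4.12), with 0.636% for siAATF-only and 0.696% for shared distal peaks. Recently duplicated families, whose reads may align to several copies, had 13 (0.833%, grid 0.730%), among them GOLGA8T (4.90). Laminin and integrin genes had 5 (0.320%, grid 0.237%, siAATF-only 0.440%). Phosphodiesterase genes had 5 (0.320%, grid 0.289%, siAATF-only 0.244%), led by PDE10A (4.79). ADAM and ADAMTS genes had 6 (0.384%, grid 0.440%), led by ADAMTS5 (4.16). Olfactory receptor genes had 6 (0.384%, grid 0.578%), led by OR11H2 (4.70). Protocadherin, glutamate and GABA receptor, neurexin and contactin, and keratin genes had 1, 3, 2 and 3 members. Their shares were 0.0641%, 0.192%, 0.128% and 0.192%, against 0.757%, 0.933%, 0.860% and 0.0984% for the grid.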

How the data were processed

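NRF-1 ChIPmentation libraries of U251 cells (siControl and siAATF) were analysed from 1 deposited broadPeak list each. Per the study's methods, the authors aligned reads to hg19 with Bowtie2 and called peaks with MACS2 in an ATAC-seq pipeline at its defaults. The sources name neither an input nor an IgG control, and do not state whether duplicates were pooled. Positions were deposited in bp. The fold enrichment is a ratio deposited by the authors. The −log10 p and −log10 q were deposited as MACS2 wrote them, and the deposited display score was not used. Read depth is not part of the lists, so it is unknown, and no interval for depth was made. A difference in depth would move the number of weak peaks called.

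Peaks were read with Python 3.11.15, numpy 2.4.6, pandas 2.3.3, scipy 1.17.1 and pyfaidx 0.9.0.4. In both lists 0 peaks on chromosomes 1 to 22 and X ended past the end of the GRCh37 chromosome, and −log10 q was below −log10 p in every row. Genes were taken from GENCODE release 44 lifted to GRCh37. Overlap needed 1 base, and peaks were placed by their midpoint. Shares have exact Clopper-Pearson 95% intervals and medians have order-statistic 95% intervals. They treat peaks as independent and carry no spread between replicates. Interval, distance and word functions were tested on simulated data. Named genes were the 10 members with the highest fold enrichment, members with the exact core, genes with at least 3 members, the largest clusters, the strongest members of each family with at least 5, and those nearest the overlap limit. Other names are said to be chosen after their values were seen.

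Members, lists and families were chosen with earlier results of these data known. Several patterns that assign gene symbols to families were corrected after their first matches had been seen, because they caught genes of other families such as ZFP36L2. The weak shared class, with its limit of 5, the AP-1 word, the coding exon share and the chromosome end share were added after results had been seen. Some named members, sequences and 1 family are not reported here.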

Additional observations from a re-analysis of the deposited data

How the results depend on the processing

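No paired analysis was possible because each condition has 1 list and both carry the same replicate number, so there is nothing to pair or leave out. Of 38 alternatives over 11 results, 20 stayed within the interval of the reported value (or within 1.5 times a count) and 18 moved. The number of members fell from 1561 to 968 with a −log10 q of at least 2 and to 55 with at least 5. The share within 100 kb of another member was 19.6% at 50 kb, 64.9% at 500 kb and 18.8% with a −log10 q of at least 2, where fewer peaks remain. The core share was 2.37% for the longer palindrome with 1 mismatch. The median distance to a start was 12.2 kb for genes of any type and 31.2 kb with a −log10 q of at least 2. The share at noncoding starts was 9.35% with 500 bp and 15.8% with 2 kb. The share with a siAATF peak nearby was 4.93% at 1 kb and 67.6% at 50 kb. The share inside coding genes and the median GC content stayed within their intervals in all alternatives run. Alternatives for the AP-1 word, coding exons and chromosome ends, and the GC content without the densest chromosomes, were chosen after seeing the data. With no reads and 1 list per condition, absence from the siAATF list cannot be told apart from a peak just under its threshold.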
